A study of Drosophila melanogaster with 2 samples.

Results

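Core promoter peaks of the zinc finger protein pebbled (peb) away from head-to-head gene pairs were examined in Drosophila melanogaster embryos. A peak was counted as one when its summit, the base of highest signal, lay at most 200 bp from the nearest transcription start site (TSS) of a protein-coding gene. Summits with a minus-strand TSS at a lower coordinate than a plus-strand TSS of another gene, both within 1000 bp of the summit, were left out as divergent. The rule left 405 of the 2841 peaks on the 7 main chromosomes. Their nearest TSSs belonged to 386 genes, and 395 genes had a TSS within 200 bp of one of these summits. The rule used position alone and no signal value.

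The material was whole embryos aged 0 to 24 h of the strain peb-GFP, which carries a transgene for a peb-eGFP fusion protein. Chromatin was sheared by sonication to fragments of 200 to 800 bp and precipitated with an antibody against GFP. There were 2 biological replicates of this 1 group and no second condition, so no test over samples could be made. The main shares are therefore given with an exact (Clopper-Pearson) 95% interval, which covers the counting of peaks or genes only, and again in the list that the authors made from each replicate alone. Whole embryos mix all cell types over the whole of embryogenesis, and the lists hold no expression values against which the labelled stage or tissue could be checked. The lists also hold no read numbers, so the depth behind a peak is unknown.

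Peb, also named hindsight, is a nuclear protein with many zinc fingers that acts in the amnioserosa, midgut, tracheae and nervous system of the embryo, and its mammalian relative is RREB1. The core promoter is the stretch around a TSS on which RNA polymerase II and the general factors assemble. In Drosophila it can carry a TATA box, an initiator (Inr) at the TSS, or a downstream element (DPE). Broadly active genes often carry the DRE, bound by DREF, or Motif 1, bound by M1BP, instead. Genes of the translation machinery use a pyrimidine-rich TCT initiator. GAGA repeats, bound by the Trl protein, lie upstream of many promoters.

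Some of the stronger peaks shared a sequence. The 6-base pattern ACAGTG, read as CACTGT on the other strand, was the 6-base sequence whose share differed most between member promoters and promoters without a peak. It was present within 100 bp of the summit at 32 of the 102 members in the strongest of 4 equal parts by signal (31.4%, 22.5 to 41.3%), and not at the strongest member, CG14100. From the second part to the weakest the share was 17.8%, 24.8% and 15.8%, so it did not fall steadily with signal. Over all members it was 22.5%. Copies lay to either side of the summit and tended to point inwards, ACAGTG before the summit and CACTGT after it. An inward pair was present at 9 of 67 peaks narrower than the usual width of 324 bp (13.4%, 6.33 to 24.0%). The first set of sequences shows 3 strong members with such an inward pair, at RluA-1, a pseudouridine synthase gene (chr2L:10474411-10474631, minus strand), PAN3, a subunit of a poly(A)-shortening enzyme (chr3L:3081328-3081548, plus strand), and Ptpmeg2, a tyrosine phosphatase (chrX:9650838-9651058, minus strand). Each runs 5′ to 3′ on the strand of the gene, with the summit at the centre and both copies in capitals.
RluA-1: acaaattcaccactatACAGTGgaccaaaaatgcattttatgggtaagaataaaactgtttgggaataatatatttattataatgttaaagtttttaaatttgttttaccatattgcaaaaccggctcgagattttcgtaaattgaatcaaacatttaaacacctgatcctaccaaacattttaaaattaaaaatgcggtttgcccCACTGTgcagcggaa
PAN3: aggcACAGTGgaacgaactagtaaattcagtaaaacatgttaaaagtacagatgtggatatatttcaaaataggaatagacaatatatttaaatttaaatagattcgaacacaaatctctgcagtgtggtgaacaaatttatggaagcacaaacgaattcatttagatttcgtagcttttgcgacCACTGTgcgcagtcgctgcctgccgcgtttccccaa
Ptpmeg2: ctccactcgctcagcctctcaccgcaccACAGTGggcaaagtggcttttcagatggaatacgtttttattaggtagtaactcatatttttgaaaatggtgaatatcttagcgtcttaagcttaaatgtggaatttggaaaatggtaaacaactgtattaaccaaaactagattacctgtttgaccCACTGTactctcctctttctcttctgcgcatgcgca
All sequences are from the RefSeq genome of the dm6 assembly. Those of PAN3 and Ptpmeg2 lay in introns of the annotation, and that of RluA-1 was intergenic.

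A second set shows members with 1 copy in the window. CG31886 (chr2L:8958139-8958359, minus strand) and RapGAP1, a GTPase activator for Rap1 (chr2L:7530612-7530832, minus strand), had theirs between the summit and the TSS, as ACAGTG at the former and as CACTGT, pointing back to the summit, at the latter.
CG31886: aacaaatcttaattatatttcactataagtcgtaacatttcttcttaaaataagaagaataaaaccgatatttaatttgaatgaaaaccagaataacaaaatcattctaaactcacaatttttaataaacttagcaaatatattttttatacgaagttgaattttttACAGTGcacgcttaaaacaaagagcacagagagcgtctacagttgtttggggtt
RapGAP1: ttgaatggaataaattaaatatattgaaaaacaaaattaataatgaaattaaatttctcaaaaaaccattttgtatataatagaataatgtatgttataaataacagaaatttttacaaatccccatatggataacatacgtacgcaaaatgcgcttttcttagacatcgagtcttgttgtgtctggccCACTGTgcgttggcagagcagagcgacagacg
The last set shows members without it. The window of CG13921 (chr3L:1746672-1746892, plus strand), among the strongest members, has no copy of the pattern. That of PlexA, the semaphorin receptor on chromosome 4 (chr4:1027182-1027402, minus strand), holds a DRE in capitals.
CG13921: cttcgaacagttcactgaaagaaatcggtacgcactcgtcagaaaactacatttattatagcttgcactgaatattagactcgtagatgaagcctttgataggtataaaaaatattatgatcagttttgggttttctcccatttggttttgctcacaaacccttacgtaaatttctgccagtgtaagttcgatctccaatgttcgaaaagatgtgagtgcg
PlexA: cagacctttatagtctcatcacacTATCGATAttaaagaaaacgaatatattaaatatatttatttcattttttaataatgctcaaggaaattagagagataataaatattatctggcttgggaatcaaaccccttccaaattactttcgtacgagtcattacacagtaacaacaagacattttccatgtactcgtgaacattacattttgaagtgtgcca

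The 15 strongest core promoter peaks present in the lists of both replicates had their summits, GstE13 apart, at -172 to -74 bp from the TSS. The signal value is the authors' measure of a peak, and neither the labels nor the file headers name its unit. It serves to rank peaks of the same list, and each list has its own scale. CG14100 had the highest value, 892 in the joint list, with 425 in replicate 1 and 474 in replicate 2, at a summit 91 bp upstream (3L, 19590478 to 19590766, intergenic). CG18549 followed with 696 in the joint list, 271 in replicate 1 and 422 in replicate 2 (3R, 12449029 to 12449305, intergenic). Of the 15 strongest members present in both lists, 14 had the higher value in replicate 2, and the ratio of replicate 2 to replicate 1 ran from 0.929 to 1.56.

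Fkbp14, a prolyl isomerase of the endoplasmic reticulum, had 574 in the joint list, with 259 in replicate 1 and 316 in replicate 2 (2R, 21497194 to 21497480, intron). TRAM, a partner of the translocation channel of that compartment, had 346, with 156 and 189 in the replicates (X, 935222 to 935443, 5′ UTR). MFS18, a transporter of the major facilitator family, had 419, with 220 and 204 (2L, 4448605 to 4448827, intergenic), and was the member of the 15 with the lower value in replicate 2.

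GstE13, a glutathione S-transferase, had 466 in the joint list, with 229 in replicate 1 and 236 in replicate 2, at a summit 89 bp downstream of the TSS in the 5′ UTR (2R, 9122095 to 9122320). Hsp27, a small heat shock protein, had 391, with 178 and 216, at 163 bp upstream (3L, 9383801 to 9384025, intergenic). Btk, a tyrosine kinase of the Tec family, had 363, with 164 and 198, at 146 bp upstream (2L, 8277752 to 8277960, intron). The casein kinase I gene gish had 414, with 198 and 214, also in an intron.

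The rest of the 15 were Tina-1 (553 in the joint list), CG13921 (472), RluA-1 (421), CG11857 (396), CG1635 (392) and brwl (352). Their values lay between 172 and 246 in replicate 1 and between 179 and 311 in replicate 2. Over all 405 members the joint signal ran from 2.24 to 892, with a median of 73.1 and quartiles of 54.2 and 128. The other 2436 peaks had a median of 73.9, a small distance beside the spread of the members.

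Fewer than 50% of the members were present in the lists of both replicates at once. By overlap of 1 bp or more, 172 of 405 (42.5%, 37.6 to 47.4%) overlapped a peak of both replicates, against 40.8% of all 2841 peaks, which lies inside that interval. A further 38 (9.38%) overlapped a peak of replicate 1 alone, 91 (22.5%) of replicate 2 alone and 104 (25.7%) of neither. Over all 2841 peaks these shares were 7.18%, 28.1% and 23.9%. Presence in both lists followed the signal, in part by construction, since the joint list was made from the alignments of both replicates. It was 99.0% in the strongest of 4 equal parts of the members, 62.4% and 5.94% in the middle parts and 1.98% in the weakest. It also followed position, with 36 of 153 members at most 100 bp from the TSS (23.5%, 17.1 to 31.1%) and 136 of 252 beyond that (54.0%, 47.6 to 60.2%). The median signal was 59.5 in the nearer set and 87.9 in the farther one.

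The strongest members in neither list were Afg3l2, a mitochondrial protease gene (81.8 in the joint list, 3L, 17242148 to 17242471), mlt (77.1, 2R, 10158578 to 10158901) and CG16700 (69.2, X, 17091552 to 17091875). In the unthresholded ranked lists they had 38.2, 34.1 and 35.4 in replicate 1 and 41.0, 37.9 and 34.1 in replicate 2. The ranked lists of both replicates held an entry at 396 members (97.8%, against 98.2% of all 2841 peaks), but these lists cover 14.8% and 10.8% of the genome.

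Where both replicates had a peak, the values ran together. Over the 172 members the Spearman correlation of the signal values was 0.84, against 0.78 over the 988 other peaks in both lists, a description across peaks of the same pair of libraries. The median distance from the joint summit was 10.5 bp in replicate 1 and 12.5 bp in replicate 2. Replicate 2 had the higher value at 120 of the 172 (69.8%), and the ratio of replicate 2 to replicate 1 ran from 0.405 to 2.12. The lowest ratio was at Dll, a homeobox gene of limb development, with 139 in replicate 1 and 56.3 in replicate 2. Others that departed were msi, an RNA-binding protein of neural precursors, with 121 in replicate 1 and 216 in replicate 2, and moody, a receptor of the blood-brain barrier, with 161 and 109. These 3 were chosen after their values were seen.

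**Figure D1:**
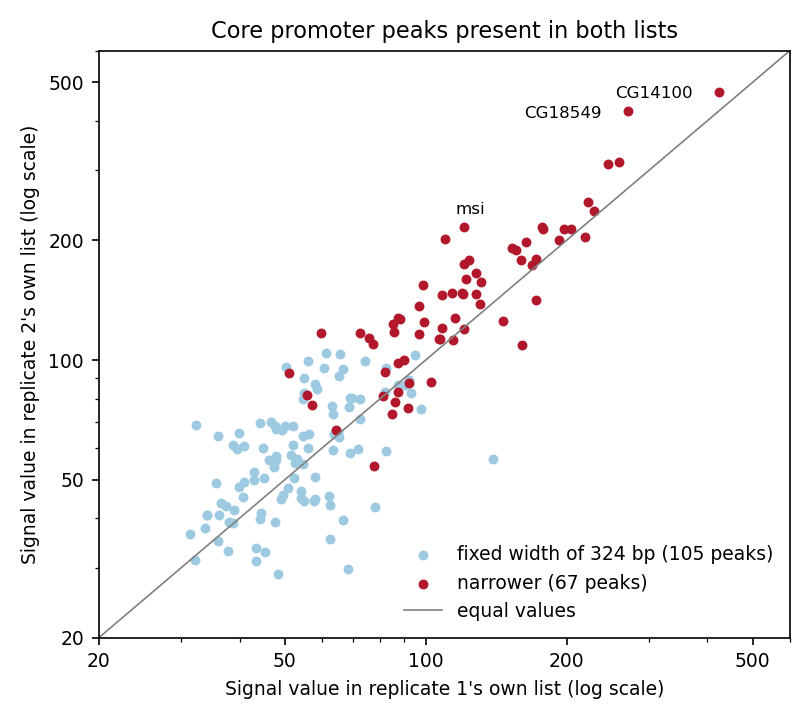
Signal value of the 172 core promoter peaks present in both replicates' own lists, replicate 1 on the x axis and replicate 2 on the y axis, both on log scales and each list on its own scale. Each point is a peak, the line marks equal values, and the 67 peaks narrower than the fixed width hold the upper end of both axes, with CG14100 highest at 425 and 474.

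Summits lay mostly upstream of the TSS and seldom on it. Of the 405, 325 (80.2%, 76.0 to 84.0%) were upstream, with a median position of -110 bp and quartiles of -155 and -28 bp. The list of replicate 1 alone gave 82.7% and a median of -129 bp over 231 members, and that of replicate 2 gave 86.6% and -120 bp over 269. The fullest bins were those from -175 to -150 bp, with 66 summits, and from -150 to -125 bp, with 63. Only 34 summits (8.40%) lay within 25 bp of the TSS. The rule itself limits positions to 200 bp, so the spread of positions is cut there.

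The strong members held a narrower range of positions than the weak ones. By 4 equal parts of the members by signal, from strongest to weakest, the median position was -142, -128, -89 and -32 bp, and the share upstream was 92.2%, 84.2%, 81.2% and 63.4%. Among the 172 members in both lists the medians of such parts were -146, -142, -153 and -128 bp. The Spearman correlation of signal with position was -0.37 over all members, -0.28 and -0.33 in the lists of replicates 1 and 2, and -0.10 over those in both. At divergent promoters the medians of the 4 parts were -101, -92, -92 and -47 bp.

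Summit position was also compared by peak width. Of the 405 peaks, 338 (83.5%) had a single width of 324 bp, with the summit at the centre, as had 87.7% of all peaks. The 67 narrower ones were all in both lists, with a signal of 130 to 892 and a median of 258, while the fixed-width peaks reached 198 at most. The narrow peaks had 64 of 67 summits upstream (95.5%, 87.5 to 99.1%) at a median of -143 bp, against 77.2% (72.4 to 81.6%) and -100.5 bp for the fixed-width ones. The strongest of the 4 parts by signal, 35 of whose 102 peaks had the fixed width, had 92.2% upstream at a median of -142 bp. Width and signal cannot be told apart here.

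**Figure D2:**
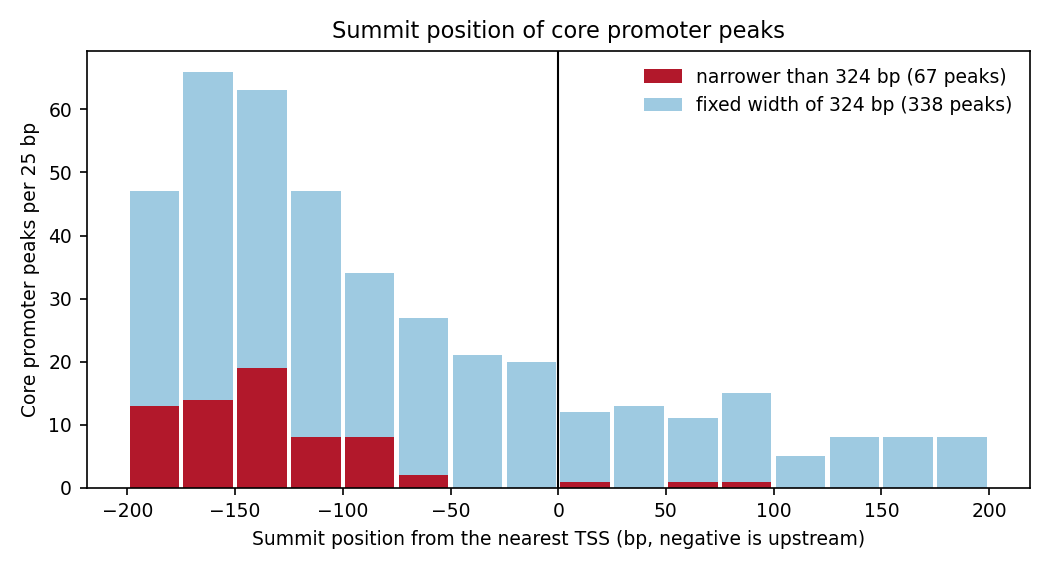
Number of core promoter peaks per 25 bp of summit position relative to the nearest TSS, in bp with negative values upstream, with narrow peaks in red and peaks of the fixed width in blue stacked on them. The red bars stand almost wholly between -200 and -75 bp, and the tallest bars are those at -175 to -125 bp.

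The distance limit cut through a continuous run of peaks. Just inside it were mud, a spindle orientation protein, with the summit at 198 bp and a signal of 53.5, and the second peak of brwl (120.8) and that of svr (55.4), both at 200 bp. Among those just outside were shep at 203 bp (109) and CG5096 at 203 bp (67.7). Among non-divergent summits there were 125 from 100 to 150 bp, 127 from 150 to 200 bp, 79 from 200 to 250 bp and 68 from 250 to 300 bp.

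The summits fell in intergenic sequence at 199 members (49.1%), in introns at 110 (27.2%), in 5′ UTRs at 83 (20.5%), in coding exons at 6 and in other exons at 7. The nearest TSS was the TSS of most transcripts of its gene at 260 members (64.2%). The summit was in an intron at 30 of these 260 (11.5%, 7.92 to 16.1%) and at 80 of the 145 with another TSS (55.2%, 46.7 to 63.4%). Another summit lay within 1000 bp of 63 members, and 16 had the TSS of a non-coding gene within 200 bp. The large chromosome arms and X had similar shares of members among their peaks, from 84 of 620 on 3L (13.5%) to 79 of 520 on 2R (15.2%). Chromosome 4 had 3 members among 7 peaks, and Y had no peak.

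The ACAGTG pattern was present in 112 of 399 member promoters (28.1%, 23.7 to 32.8%) and in 1044 of 8964 promoters without a peak (11.6%, 11.0 to 12.3%). A promoter is here the stretch from 250 bp before to 50 bp after the TSS, and the comparison set is every gene that could have been a member but had no summit within 1000 bp of any TSS. The share was 29.4% in the list of replicate 1, 26.5% in that of replicate 2 and 29.2% at members whose TSS is the one of most transcripts. GC content of the promoters was 40.4% ± 7.15 (SD, n = 399 promoters) with a peak and 39.8% ± 8.19 (n = 8964) without. The pattern was picked as the first of all 6-base sequences by this difference, so the size of the difference is a description. Next in order were ACACTG (27.6% and 15.7%), AGAGAG (25.3% and 15.2%), AAAATA (64.7% and 55.5%), CTGTGC (21.1% and 11.9%) and ACTGTG (21.3% and 12.2%). Both CTGTGC and ACTGTG can overlap the first. The sequence most depleted was AATGGA, at 11.3% and 19.1%.

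The pattern was not particular to core promoters. Within 100 bp of the summit it was present at 22.5% of the members, 21.6% of non-divergent peaks 200 to 1000 bp from a TSS, 22.6% of peaks beyond 1000 bp and 16.3% of divergent ones. At narrow core promoter peaks the share was 32.8%. These other peaks had no part in picking the pattern.

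Copies stood to both sides of the summit rather than on it, most plainly at the narrow peaks. At narrow core promoter peaks, matches numbered 2 within 40 bp of the summit, 32 from 40 to 120 bp and 5 from 200 to 300 bp. Per 100 windows and 20 bp these are 0.746, 5.97 and 0.746. Over all members the same zones gave 2.22, 3.15 and 0.864, and over peaks beyond 1000 bp 1.44, 3.57 and 0.881. Promoters without a peak, centred 110 bp upstream of the TSS as the median member was, gave 0.800, 0.890 and 0.827.

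**Figure D3:**
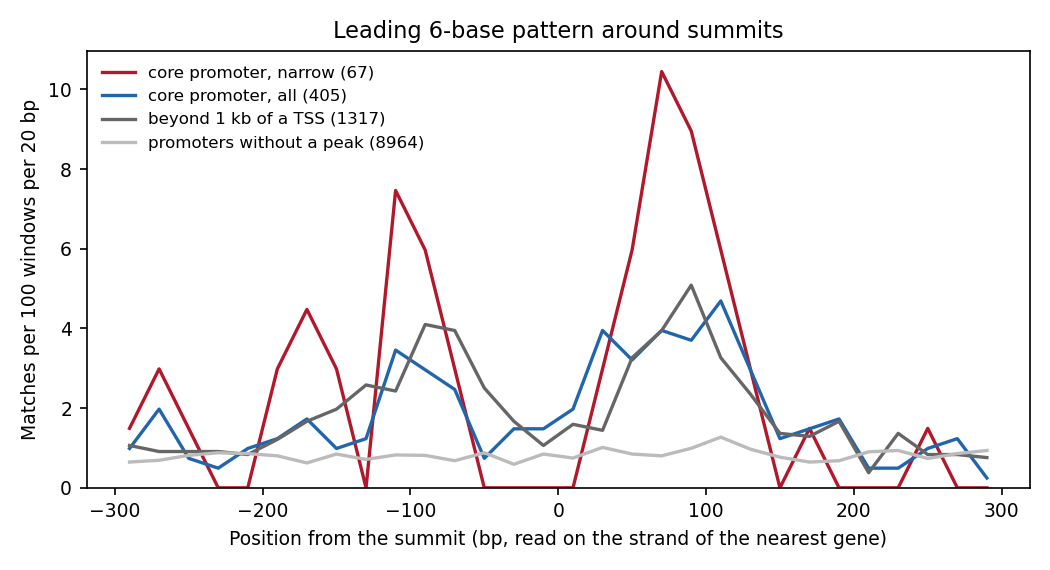
Matches of the leading 6-base pattern on either strand, per 100 windows in bins of 20 bp, against position from the summit in bp on the strand of the nearest gene. Narrow core promoter peaks (red) have maxima on both sides of the summit and no match in the bins next to it from -60 to 20 bp. All members (blue) and peaks beyond 1000 bp (dark grey) show the same sides more weakly. Promoters without a peak (light grey) run from 0.591 to 1.27, with the highest value from 100 to 120 bp.

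The copies mostly pointed to the summit. Between 20 and 150 bp from it, 106 of 147 copies at members (72.1%, 64.1 to 79.2%) read ACAGTG before the summit or CACTGT after it, and 31 of 37 did so at narrow peaks (83.8%, 68.0 to 93.8%). The shares were 77.0% for peaks at 200 to 1000 bp, 75.8% beyond 1000 bp and 69.3% at divergent promoters, against 53.1% (49.9 to 56.2%) at promoters without a peak. Several copies can come from 1 window, so they are not fully independent. The bases next to the pattern also differed. Of 161 copies at members, 46.6% had C before and 46.0% had G after ACAGTG, where the most frequent bases at promoters without a peak were A (36.7%) and T (27.9%).

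Inward pairs within 150 bp of the summit were present at 19 members (4.69%, 2.85 to 7.23%), of which 15 are in both replicate lists, and at 13 of 8964 promoters without a peak (0.145%, 0.0772 to 0.248%). The opposite, outward order occurred at 2 members and 11 promoters without a peak. The list of replicate 1 gave 17 pairs (7.36%), that of replicate 2 gave 16 (5.95%), and peaks beyond 1000 bp 86 of 1317 (6.53%). The median spacing of a pair was 181 bp at members. After RluA-1 (190 bp), the next strongest were CG1635 (392 in the joint list, spacing 185 bp), PAN3 (288, 181 bp) and Ptpmeg2 (258, 157 bp). Others were at sea, the mitochondrial citrate carrier (175, 178 bp), Glyp, glycogen phosphorylase (134, 192 bp), Vinc, the adhesion protein vinculin (112, 227 bp), and Top1, topoisomerase I (101, 78 bp). Pairs were looked for after the sequences had been seen, and the genes of the last sentence of values were picked in the same way.

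Of the known core promoter elements, the TATA box was scarcer at members, the DPE core more frequent in the joint list, and the share of the Inr and TCT cores without a peak lay inside the members' interval. TATAAA starting 40 to 20 bp before the TSS on the gene's strand was present at 10 of 399 member promoters (2.51%, 1.21 to 4.56%), against 9.54% (8.94 to 10.2%) of promoters without a peak. The share was 3.95% and 3.36% in the lists of replicates 1 and 2 and 3.50% at the TSSs of most transcripts. The strongest members with it were MFS18, Hsp27 and Ufsp1 (221 in the joint list). The initiator TCAGT, starting at most 5 bp from the TSS, was at 12.8% (9.67 to 16.5%) against 13.5%, led by CG13921, msi and MFS10. The DPE core GACG, starting 24 to 36 bp after the TSS, was at 9.77% (7.04 to 13.1%) against 5.85% (5.37 to 6.35%), led by Fkbp14, moody and RapGAP1. In the list of replicate 1 it was at 10.5% (6.86 to 15.3%). In that of replicate 2 (7.84%, 4.92 to 11.7%) and at the TSSs of most transcripts (8.95%, 5.76 to 13.1%) the interval holds the 5.85%. The TCT start TCTTT, starting at most 4 bp from the TSS, was at 5 member promoters (1.25%, 0.408 to 2.90%) against 1.17%, and within the members' peaks it was led by ASPP, the dioxygenase gene Tet and RpL27.

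Patterns searched on both strands gave the following picture. GAGAG was at 42.4% of member promoters (37.5 to 47.4%) against 32.1% of those without a peak, with 43.0% and 38.4% in the lists of replicates 1 and 2. The strongest members with it within 100 bp of the summit were CG18549, CG11857 and Btk. The E-box CAGCTG was at 78 of 399 member promoters (19.5%, 15.8 to 23.8%) against 1348 of 8964. Within 100 bp of the summit it was led by Hpf1, Sesn and CG9399. The DRE TATCGATA was at 8.02% (5.55 to 11.1%) against 6.05%, Motif 1 (GGTCACACT) at 4.51% (2.70 to 7.04%) against 3.77%, Motif 6 at 1.25% against 1.39%, and Motif 7 at 9.27% (6.61 to 12.6%) against 6.12%. For the DRE, Motif 1 and Motif 6 the share without a peak lay inside the members' interval. The Polycomb-recruiting Pho core GCCAT was at 42.4% against 41.2%, the Zelda site CAGGTAG at 0.752% against 1.86%, and the RREB1 core CCCAAAC at 3.76% (2.12 to 6.12%) against 3.92%. By the same summit windows, the strongest members with the RREB1 core were RluA-1, brwl and jigr1, and the 1 member with a Zelda site was Dph1.

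**Figure D4:**
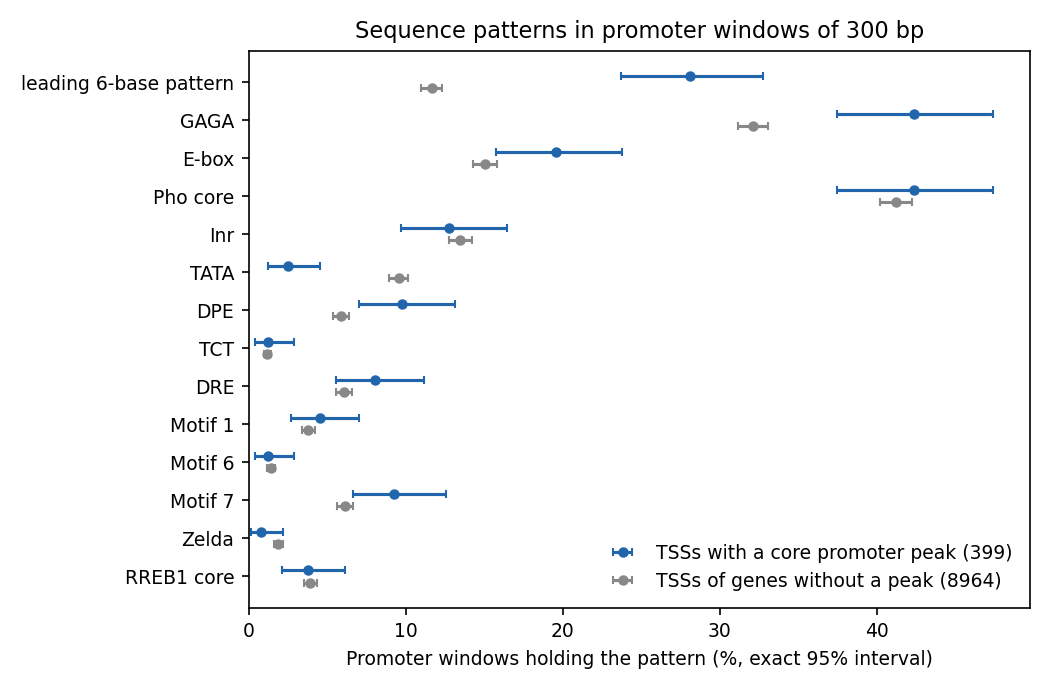
Percent of promoter windows (250 bp before to 50 bp after the TSS) that hold each pattern, on the x axis with exact 95% intervals as bars, for the 399 TSSs with a core promoter peak (blue) and 8964 TSSs of genes without one (grey). The intervals are apart for the leading pattern (28.1% and 11.6%), GAGA (42.4% and 32.1%), TATA (2.51% and 9.54%) and DPE (9.77% and 5.85%), and overlap for the 10 other patterns.

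Core promoter summits and divergent ones differed in some of the elements under them, though the sets were not matched for distance to a TSS. Within 100 bp of the summit the DRE was at 19 of 405 members (4.69%, 2.85 to 7.23%) and 52 of 540 divergent peaks (9.63%), but at 1 of 579 peaks 200 to 1000 bp from a TSS and 1 of 1317 beyond. Motif 7 was at 6.42% of members and 14.3% of divergent peaks. Motif 1 was at 10 members (2.47%, 1.19 to 4.49%) and 2.78% of divergent peaks. In the lists of replicates 1 and 2 it was at 2.16% and 4.46% (2.33 to 7.66%), so its order against the divergent peaks was not the same in both lists. GAGAG had the other order, with 28.1% at members, 15.6% at divergent peaks and 25.1% beyond 1000 bp. The strongest members with a DRE were eIF6, a ribosome assembly factor (267 in the joint list), CG1827 (177) and eEF1gamma, a translation elongation factor (173). Those with Motif 1 were Xbp1, the transcription factor of the unfolded protein response (107), CG34195 (94.6) and CG32448 (83.5). The strongest with Motif 7 were CG11857, TRAM and CG9399. Summits with a DRE lay at a median of -58 bp and those without at -111.5 bp.

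Base composition under the summit moved with signal. The GC content within 100 bp of the summit was 38.9% ± 8.91 (SD over 405 members), and by the same 4 parts from strongest to weakest it was 35.3%, 37.0%, 39.2% and 44.2%. It was 34.2% at narrow peaks, 34.9% at divergent peaks and 36.4% beyond 1000 bp. Since weak peaks also lay nearer to the TSS, position, composition and signal cannot be told apart here.

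Over all genes, 395 of 9963 that could hold a core promoter peak did so (3.96%, 3.59 to 4.37%). A gene could hold one if some position within 200 bp of its TSSs was not divergent. The list of replicate 1 alone gave 229 genes (2.30%) and that of replicate 2 gave 267 (2.68%), and 151 genes were found in all 3 lists. Genes with a peak were longer, with a median of 5449 bp against 2220 bp for the other 9568. They also more often had several TSSs, 60.5% against 28.1%. A gene with more TSSs offers more positions to the rule, and its part in these shares was not tested.

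Genes of the cytoplasmic ribosome had the highest share among 23 gene groups in the joint list. Core promoter peaks were at 13 of 46 eligible genes (28.3%, 15.99 to 43.5%), next to 3.96% of all eligible genes. Of these 13, 3 overlapped a peak in the list of replicate 1, 10 one in that of replicate 2, and 3 neither. By the same rule, the list of replicate 1 alone gave 3 ribosomal protein genes and that of replicate 2 gave 11. The first place did not hold in replicate 1's list. There, chromosome architecture (2 of 16) and the Polycomb and Trithorax group (2 of 21) had higher shares than the 3 of 46. RpL23A was the strongest of the 13, with 138 in the joint list, 54.8 in replicate 1 and 79.9 in replicate 2 (3L, 1668597 to 1668920). RpL27A and RpL17 were the others in both, with 83.4 and 77.3 in the joint list, 37.4 and 38.7 in replicate 1, and 43.0 and 39.0 in replicate 2. RpS3A, on chromosome 4 (83.5), and RpL22 (78.9) had values of 43.5 and 54.7 in replicate 2 and no peak in the list of replicate 1. RpS29 was the weakest (51.2) and was in neither list, as were RpL11 (57.8) and RpL37-1 (53.8). Summits of these genes lay from -149 to 25 bp, and 11 of the 13 were within 100 bp of the TSS.

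Other groups of broadly used genes were too small to tell from the 3.96% of all eligible genes, which lies inside the interval of each. There was no core promoter peak at 15 eligible mitochondrial ribosomal protein genes, 23 proteasome genes, 22 genes of NADH dehydrogenase or 13 aminoacyl tRNA synthetase genes, with upper limits of 21.8%, 14.8%, 15.4% and 24.7%. The nucleoporins (4 eligible), Vps proteins (9) and the CCT chaperonin (2) had none either. Among 26 translation initiation factors there were 2, eIF6 (267 in the joint list, 131 and 139 in the replicates) and eIF2A (53.0, in neither list). Mediator had MED4 (63.3) of 12, and the TATA-binding protein associated factors had Taf4 (73.3) of 8.

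Chemoreceptor and cuticle protein genes had fewer than the 3.96% of all eligible genes in the joint list. Chemoreceptor genes had 0 of 157 (upper limit 2.32%), cuticle protein genes 0 of 93 (3.89%), odorant-binding protein genes 0 of 42 (8.41%) and UDP-glycosyltransferase genes 0 of 29 (11.9%). The first pair of limits lies below that share, and the others do not. Both of these groups also had 0 in the lists of replicates 1 and 2, where all eligible genes had 2.30% and 2.68%. The cuticle limit lies above both of these shares, and the chemoreceptor limit lies below that of replicate 2 only. The glutathione S-transferases had GstE13 alone of 32 (3.13%, 0.0791 to 16.2%), and the cytochrome P450 genes had Cyp6u1 alone of 76, or 1.32% (0.0333 to 7.11%). Its summit (221 in the joint list, 107 and 113 in the replicates) is also that of the TSS of Ufsp1. Genes still known by a CG number had 105 of 4674 (2.25%, 1.84 to 2.71%).

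Groups of regulators were small, and in the joint list the interval of each apart from chromosome architecture holds the 3.96% of all eligible genes. Of 16 genes for chromosome architecture, Trl, which encodes the GAGA factor (166 in the joint list, 81.7 and 83.2 in the replicates), CTCF (68.3) and pita (59.4), both insulator proteins, had a peak (18.8%, 4.05 to 45.6%). The lists of replicates 1 and 2 alone each gave 2 of the 16, and 1 was found in all 3 lists, so this exception rests on the joint list. Trl, lolal (55.5), a BTB domain partner of Trl, and Utx (47.6), a histone H3 demethylase, made up 3 of 21 Polycomb and Trithorax group genes (14.3%, 3.05 to 36.3%). The lists of replicates 1 and 2 alone gave 2 and 3 of the 21, and 1 was found in all 3 lists. For 3 of 21 the lower limit of 3.05% lies above the 2.68% of all eligible genes in replicate 2's list. Which group stood apart thus depended on the list. The strongest summit of each of Trl, CTCF, pita, lolal and Utx lay downstream of the TSS, by 102 to 184 bp. None of 11 Hox genes and cofactors had one (upper limit 28.5%), and of 21 segmentation genes only bcd, the maternal anterior determinant, did (4.76%, 0.120 to 23.8%), with 67.4 in the joint list and a peak in replicate 2's list alone. In the Notch pathway, 1 of 17 (5.88%, 0.149 to 28.7%) had a peak, gro, the Groucho corepressor, with 245 in the joint list, 115 in replicate 1 and 127 in replicate 2 (3R, 26042431 to 26042593). The symbols SA (architecture), calypso (Polycomb and Trithorax), nos (segmentation) and Dl (Notch) were not found in the annotation, so these genes were not assessed in their groups.

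**Figure D5:**
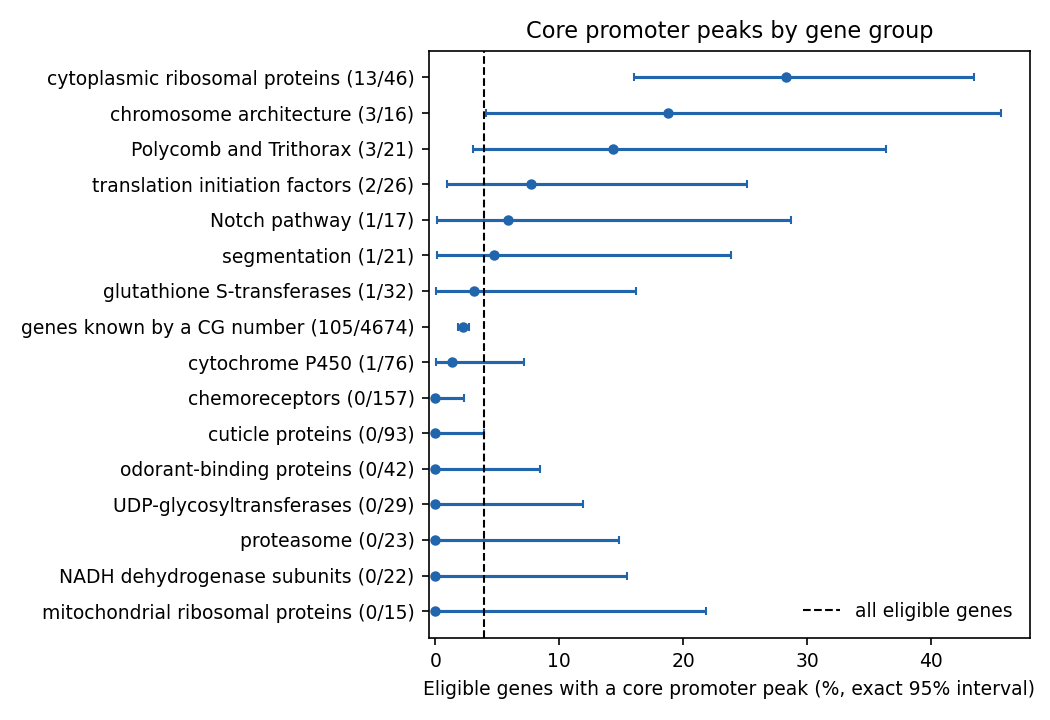
Percent of eligible genes with a core promoter peak in the 16 gene groups with at least 15 eligible genes, on the x axis with exact 95% intervals as bars and counts beside the names. The dashed line is the share of all eligible genes (3.96%), and cytoplasmic ribosomal proteins (13 of 46) stand farthest to its right.

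Some genes had several core promoter peaks. There were 17 such genes with 36 peaks between them. At 7 of them the peaks lay apart, by different TSSs. Ptpmeg2 had 3, with 278, 258 and 75.8 in the joint list, and the first pair were in both replicates (128 and 114 in replicate 1, 147 and 148 in replicate 2). CG2258 had 97.8 and 86.3, brwl 352 and 120.8, and each of these 4 peaks was in both lists. At gro (245 and 56.5), CG5910 (129 and 74.1), lawc (82.9 and 48.0) and SNF4Agamma (53.5 and 7.78), at most 1 of the pair was in both lists.

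At the other 10 genes (Ald1, CG3847, CG5254, Hakai, Hr78, Pgant4, Rpe, atos, axed and lolal) the peaks overlapped each other, in 11 pairs with summits 199 to 251 bp apart. The weaker peak of each pair had a signal of 2.28 to 19.3, and only the pair at Hakai, an E3 ubiquitin ligase, touched peaks of both replicates. Without every peak that overlaps a stronger one, 383 members were left.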

How the data were processed

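ChIP-seq peak lists on dm6 were used as deposited. Per the file headers, the authors called peaks on each replicate's alignments and on those of both, and thresholded them by the irreproducible discovery rate. The aligner and the peak caller are not given in the sources used here. The deposited score is a scaled rate, capped at 1000, with a lowest value of 830. The deposited signal value is the authors' own for each peak, on a separate scale per list. Summits were computed as the start plus the deposited offset. The larger joint list gave the members, and the last 8 columns of each ranked list, which could not be mapped to a sample, were not used.

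TSSs came from Ensembl release 115 and sequence from RefSeq. No peak ran past the end of its chromosome. Shares have exact (Clopper-Pearson) 95% intervals. No test over samples was possible. The classification, overlap and pattern counts were checked on simulated data. The tools were scipy 1.17.1, pandas 2.3.3, numpy 2.4.6 and, for plots, matplotlib 3.10.9, under Python 3.11.15. Named genes were the 15 strongest members in both replicates, the 3 strongest in neither, the 3 strongest and the weakest of each group, the 3 strongest with each pattern, those next to the distance limit and genes with several peaks. RpL17, RpL22, RpL11, RpL37-1, Dll, msi and moody were added after their values were seen. The members, gene groups and patterns were chosen with earlier results of these data known. Alternatives were other lists, distances, overlaps, windows, TSS choices and definitions of a divergent pair. One gene next to the distance limit is not reported here, and sequences are shown for some members only.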

Additional observations from a re-analysis of the deposited data

How the results depend on the processing

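The joint list gave 405 members, the lists without one replicate 231 to 269, a distance of at most 100 bp 153, and peaks in both lists 172. The share in both replicate lists was 51.8% with a score of 1000, 23.5% within 100 bp and 34.8% with 50% reciprocal overlap. The share upstream was 82.7 to 86.6% without one replicate, 66.7% within 100 bp and 87.8% for peaks in both lists. The DRE was in 3.90 to 4.09% of summit windows without one replicate, 8.50% within 100 bp, 7.72% with 1 TSS per gene, 2.22% in windows of 50 bp either side and 8.64% in those of 200 bp. Motif 1 was in 2.16 to 4.46% without one replicate, and in 5.23%, 0.741% and 4.69% within 100 bp, with 50 bp and with 200 bp. The share of eligible genes was 2.30 to 2.68% without one replicate, 3.26% with a score of 1000, 1.56% within 100 bp, 3.23% with 1 TSS per gene and 1.73% for peaks in both lists. The cause was not tested, except that shorter limits, smaller windows and fewer peaks lower counts by construction. The other 28 values, the conservative list and the second definition of a divergent pair among them, stayed within 1.5 times the count or the interval of the share. Restriction to peaks in both lists, and leaving out peaks that overlap a stronger one, were chosen after seeing the data. No paired analysis was possible because there is 1 group. The unknown read depth limits every statement about a peak's absence.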
